A study of Mus musculus with 8 samples.

Results

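The matrix metalloprotease (Mmp), ADAMTS protease (Adamts) and tissue inhibitor of metalloprotease (Timp) genes were examined in RNA-seq libraries of mouse esophageal organoids. Members were taken by gene symbol alone, as Mmp or Adamts with a number, including Mmp1a and Mmp1b, and Timp1 to Timp4. The rule gave 46 of the 52636 genes in the table, namely 23 Mmp, 19 Adamts and 4 Timp genes. A test was run on the 34 members that reached 1 CPM (read counts scaled to a common library total) in at least 2 libraries, which were 15 Mmp, 15 Adamts and 4 Timp genes.

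Esophagi of wild-type mice were digested, and the suspended cells were grown in matrigel, a basement membrane gel, in KSFM medium for 13 days with medium changes every 2 days. Ligands or inhibitor were given over 72 h, with renewal at 24 h intervals, and 2 libraries were made for each of 4 groups. TGFb1+BMP4 organoids received TGFb1 at 1 ng/ml and BMP4 at 20 ng/ml. TGFb1 organoids received TGFb1 at 1 ng/ml. BMP4+inhibitor organoids received BMP4 at 20 ng/ml with 500 nM A8301, a compound that blocks the type I receptors for TGFb. Inhibitor organoids, the controls, received 500 nM A8301 alone. The labels list no inhibitor for the groups with TGFb1, so a comparison of such a group with an inhibitor group involves ligand addition and inhibitor absence together, as does any interaction of these treatments. Whether the pair of libraries in a group came from different animals or cultures is not stated, so p-values measure the spread between these libraries, which may be technical.

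Matrix metalloproteases are zinc enzymes that cut collagens, laminins and other matrix proteins, and most are made as inactive proenzymes that lose a prodomain when activated. ADAMTS proteases are secreted relatives with thrombospondin repeats. They cut proteoglycans such as aggrecan and versican, trim procollagen, or act on fibrillin and von Willebrand factor. TIMP proteins bind the active site of these enzymes and block it, and TIMP-3, which stays in the matrix, also blocks several ADAM and ADAMTS enzymes. TGFb is known as an inducer of several of these genes in epithelial cells and fibroblasts.

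Library depth gave a floor of 0.15 CPM (3 units of the deposited scaled counts), and the reads inferred per library lay between 28600000 and 43600000. Markers of squamous epithelium were abundant in every library, with summed levels of the 12 genes between 18406 and 29953 CPM. The 14 fibroblast markers summed to 1649 and 7662 CPM in TGFb1+BMP4 organoids, 1537 and 5198 CPM in TGFb1 organoids, 193 and 648 CPM in BMP4+inhibitor organoids and 73.3 and 182 CPM in inhibitor organoids, and none of them was at 0 in every library. The 10 muscle markers summed to 108 and 567 CPM, 70.1 and 293 CPM, 52.5 and 215 CPM, and 14.8 and 75.1 CPM in the same order of groups. Neutrophil markers summed to at most 0.9 CPM in a library, the mast cell markers were at 0 in all 8 libraries, and endothelial markers summed to at most 4.597 CPM. The 10 leukocyte markers, with Itgam counted under both of its gene IDs, summed to 213 and 223 CPM with TGFb1+BMP4, 291 and 237 with TGFb1, 102 and 73.1 with BMP4+inhibitor and 157 and 131 with inhibitor. Ptprc, Adgre1, Tyrobp and Cd3e stayed below 1 CPM in every library. Cd14 and both Itgam entries were called higher, and Cd68 lower, with TGFb1+BMP4 and with TGFb1 than with inhibitor. Csf1r was also called lower with TGFb1 (10.6 and 10.7 CPM) than with inhibitor (16.4 and 17.8 CPM). Of the fibroblast markers, 8 were called higher and 1 lower in TGFb1+BMP4 than in inhibitor organoids, and 7 were called higher in TGFb1 than in inhibitor organoids. When replicate number was also modelled, as described below, 12 were higher and 1 lower with TGFb1+BMP4 and 12 higher with TGFb1, and 6 of 7 tested muscle markers were higher in each, against 0 otherwise. The part of these cells in the results that follow was not tested. In such bulk libraries, fewer cells of a type and less RNA per cell cannot be told apart.

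Of the 34 tested members, 20 were called changed in at least 1 of 6 comparisons, by limma on log2(CPM + 1) with a Benjamini-Hochberg adjusted p under 0.05 over all 16180 genes tested. Of all tested genes, 57.4% were called in at least 1 comparison, so the members' share lay near that of all genes. Once replicate number was modelled, 30 of the 34 members were called, a larger share than the 73.1% of all tested genes. Fold changes are given on this log2(CPM + 1) scale with their standard errors, which understates the change of genes with low values. In TGFb1+BMP4 organoids 17 members rose and 3 fell against inhibitor organoids, where 27.6% of all tested genes rose and 18.4% fell. In TGFb1 organoids 13 rose and 2 fell, where 20% of all tested genes rose and 20% fell. In both, the share of members that rose lay above that of all genes, and the share that fell below it. BMP4+inhibitor organoids had 3 members higher and 0 lower than inhibitor organoids, where 5.49% of all tested genes rose and 2.91% fell. These 3 comparisons share the inhibitor libraries. The median log2 fold change of the tested members was 1.3 for TGFb1+BMP4, 1.05 for TGFb1 and 0.48 for BMP4+inhibitor, where the medians of all tested genes were 0.133, -0.008 and 0.016.

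Libraries with the same replicate number deviated together, and a fit that also carried the replicate number as a block called more genes everywhere. With this replicate block the members called higher and lower numbered 21 and 4 in TGFb1+BMP4 organoids (35.2% and 23.7% of all tested genes), 20 and 4 in TGFb1 organoids (26.7% and 26.4%), and 10 and 1 in BMP4+inhibitor organoids (11.8% and 9.85%), each against inhibitor organoids. Calls were also repeated with each library of the groups compared left out in turn. All 52 calls made without the block, each being 1 member in 1 comparison, also held with it. Another 43 pairs of member and comparison passed only with the block, and these are given below as adjusted p "with the block".

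**Figure D1:**
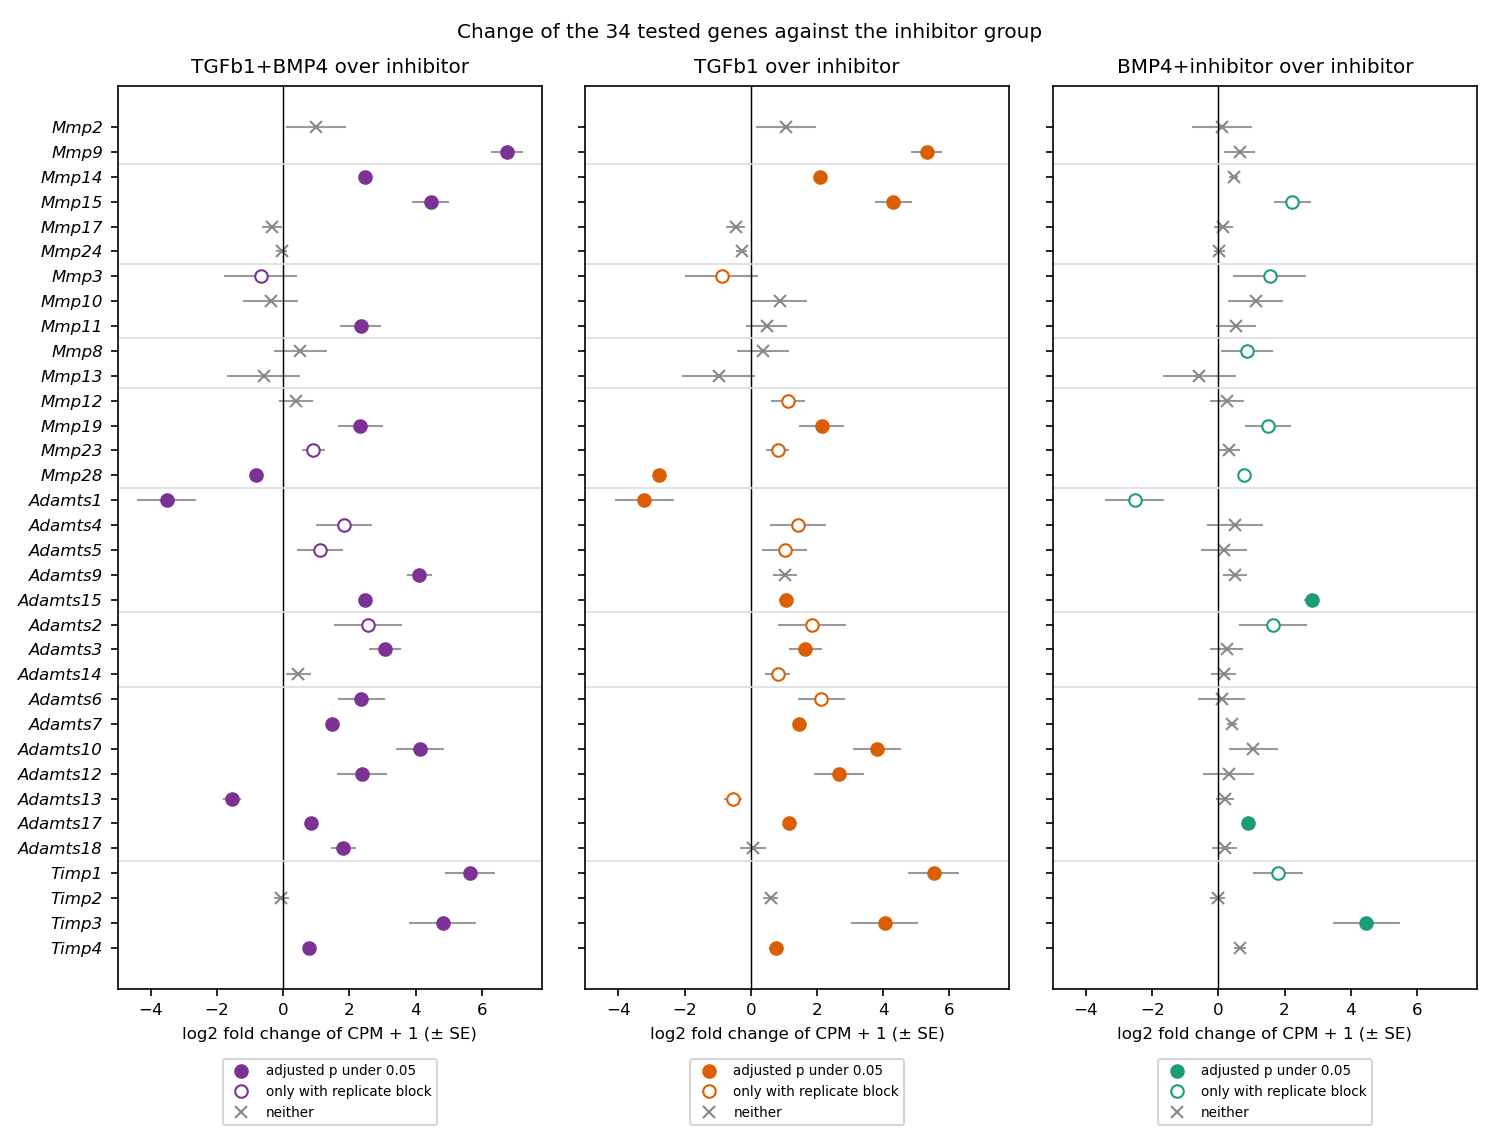
Log2 fold changes of CPM + 1 (x axis, bars are standard errors) of the 34 tested genes, grouped by role, in TGFb1+BMP4, TGFb1 and BMP4+inhibitor organoids over inhibitor organoids. Filled points passed an adjusted p of 0.05, open points passed only with the replicate block, and crosses passed neither; Mmp9, Timp1, Timp3 and Mmp15 lie farthest to the right in the first panel and Adamts1 farthest to the left.

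Gelatinases cut denatured collagen and the type IV collagen of basement membranes. Mmp9 (chr2:164940780-164955850, + strand, GRCm38 as for all gene positions here), the gelatinase stored and released by many activated cells, stood at 205 and 74.1 CPM with TGFb1+BMP4, 57.0 and 34.7 with TGFb1, 0.899 and 0.700 with BMP4+inhibitor and 0.10 and 0.20 with inhibitor (replicates 1 and 2). No group overlapped another, and both groups with TGFb1 stood far above both groups with the inhibitor. Mmp9 rose by a log2 fold change of 6.76 ± 0.47 in TGFb1+BMP4 organoids (adjusted p = 0.000223) and 5.31 ± 0.47 in TGFb1 organoids (adjusted p = 0.00072), each against inhibitor organoids. It also rose by 6.11 ± 0.47 in TGFb1+BMP4 over BMP4+inhibitor organoids (adjusted p = 0.000578). These calls held with each library left out. TGFb1+BMP4 over TGFb1 gave 1.45 ± 0.47 (adjusted p = 0.167), and BMP4+inhibitor over inhibitor 0.65 ± 0.47 (adjusted p = 0.42). The inhibitor libraries lay around the floor, and with a pseudocount of 0.1 the called values were 8.97, 7.51 and 7.11. Neutrophils and macrophages are known sources of this enzyme. The neutrophil markers summed to at most 0.9 CPM in a library. The myeloid marker Cd14 stood at 98.8 and 83.1 CPM with TGFb1+BMP4, 91.2 and 55.9 with TGFb1, 12.5 and 6.05 with BMP4+inhibitor and 6.15 and 5.05 with inhibitor, so it was high in the same groups as Mmp9. Both Itgam entries were also called higher with TGFb1+BMP4 and with TGFb1 than with inhibitor. Cd68 and Csf1r of the leukocyte list did not follow Mmp9. Cd68 was called lower in both of these comparisons, and Csf1r was called lower with TGFb1 than with inhibitor. Mrc1 stood at 0.25 and 1.649 CPM with TGFb1+BMP4, 0.20 and 1.399 with TGFb1, 0.20 and 0.70 with BMP4+inhibitor and 0 and 0.05 with inhibitor. Ptprc, Adgre1 and Tyrobp stayed below 1 CPM in every library, with their highest values in replicate 2 of the groups with TGFb1. The part of neutrophils and macrophages in the Mmp9 values was not tested.

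Mmp2, the other gelatinase, stood at 111 and 511 CPM with TGFb1+BMP4, 120.2 and 526 with TGFb1, 85.5 and 199.7 with BMP4+inhibitor and 119 and 121 with inhibitor. Replicate 2 was several times higher than replicate 1 wherever TGFb1 was given, and the inhibitor libraries lay within the range of each TGFb1 group or next to it. The log2 fold change was 0.98 ± 0.91 for TGFb1+BMP4 (adjusted p = 0.398) and 1.06 ± 0.91 for TGFb1 (adjusted p = 0.375), both against inhibitor organoids. No comparison of Mmp2 passed, with or without the block.

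Membrane-type enzymes sit on the cell surface and are cut to their active form inside the cell by furin. Mmp14 (chr14:54431612-54445364, + strand), which cleaves fibrillar collagen and activates the Mmp2 proenzyme, stood at 559 and 548 CPM with TGFb1+BMP4, 439 and 415 with TGFb1, 143 and 131 with BMP4+inhibitor and 86.4 and 114 with inhibitor. The groups lay in this order with no overlap and little spread between replicates. Mmp14 rose by 2.47 ± 0.14 in TGFb1+BMP4 (adjusted p = 0.000145) and 2.09 ± 0.14 in TGFb1 organoids (adjusted p = 0.000335) over inhibitor organoids. It rose by 2.01 ± 0.14 in TGFb1+BMP4 over BMP4+inhibitor organoids (adjusted p = 0.000488). Without TGFb1, BMP4+inhibitor over inhibitor gave 0.46 ± 0.14 (adjusted p = 0.105). BMP4 on top of TGFb1 gave 0.38 ± 0.14 (adjusted p = 0.221), in a comparison where the median of all tested genes was 0.135.

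Mmp15 (chr8:95352268-95375080, + strand), a close relative of Mmp14 found in many epithelia, stood at 439 and 316 CPM with TGFb1+BMP4, 431 and 265 with TGFb1, 151 and 41.9 with BMP4+inhibitor and 17.8 and 14.5 with inhibitor. The groups with TGFb1 overlapped each other and stood above BMP4+inhibitor, which stood above inhibitor. Replicate 1 was the higher one in every group, the opposite of most members. Mmp15 rose by 4.45 ± 0.56 with TGFb1+BMP4 (adjusted p = 0.00148) and 4.31 ± 0.56 with TGFb1 (adjusted p = 0.00238) over inhibitor. Its rise of 2.24 ± 0.56 with BMP4+inhibitor over inhibitor had an adjusted p of 0.0598, and 0.00752 with the block. Against BMP4+inhibitor, TGFb1+BMP4 gave 2.21 ± 0.56 (adjusted p = 0.0295), a call that did not hold with no filter on low values (0.0676), in a fit of these groups alone (0.0869), or without BMP4+inhibitor replicate 2 or either TGFb1+BMP4 library (0.0559 to 0.11).

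The other membrane-type members moved little. Mmp24 lay between 8.79 and 13.0 CPM in all 8 libraries, and Mmp17 between 0.50 and 2.10 CPM. No comparison of Mmp24 passed in any fit, and Mmp17 passed only with the block, being lower in TGFb1+BMP4 than in BMP4+inhibitor organoids (-0.48 ± 0.29, adjusted p = 0.256, with the block 0.0496). Part of Mmp24 (13.6% of its exon bases) overlaps BC029722 on the other strand, at 16.6 to 24.3 CPM, and the strand setting of the counting is not given. Mmp25 was too low to test, at 0.50 and 0.400 CPM with inhibitor and at most 0.150 CPM in the other groups, and Mmp16 reached 0.35 CPM.

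Stromelysins cleave proteoglycans, laminin and fibronectin and activate other proenzymes. Mmp11 (chr10:75923222-75936496, - strand), known from stroma around carcinomas and cut by furin, stood at 42.3 and 97.2 CPM with TGFb1+BMP4, 9.44 and 30.0 with TGFb1, 13.4 and 23.2 with BMP4+inhibitor and 9.74 and 14.4 with inhibitor. Only the TGFb1+BMP4 libraries stood apart, above all 6 others, and the other groups overlapped. Mmp11 rose by 2.34 ± 0.61 with TGFb1+BMP4 over inhibitor (adjusted p = 0.0202). That call did not hold without either inhibitor library or without TGFb1+BMP4 replicate 2 (0.0626 to 0.104). TGFb1+BMP4 over TGFb1 gave 1.86 ± 0.61 (adjusted p = 0.169, with the block 0.0117), and over BMP4+inhibitor 1.80 ± 0.61 (adjusted p = 0.0681, with the block 0.00209). With TGFb1 alone the value over inhibitor was 0.48 ± 0.61 (adjusted p = 0.547).

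Mmp3, a broad stromelysin, stood at 11.5 and 70.5 CPM with TGFb1+BMP4, 14.7 and 42.2 with TGFb1, 71.0 and 269 with BMP4+inhibitor and 22.6 and 95.7 with inhibitor. Replicate 2 was higher in every group. Both groups with TGFb1 lay just below BMP4+inhibitor with no overlap, and inhibitor overlapped all others. BMP4+inhibitor over inhibitor gave 1.55 ± 1.11 (adjusted p = 0.417, with the block 0.00673), and TGFb1+BMP4 over BMP4+inhibitor -2.22 ± 1.11 (adjusted p = 0.181, with the block 0.000713). With the block, Mmp3 was also lower with TGFb1 (-0.88, adjusted p = 0.0173) and with TGFb1+BMP4 (-0.68, adjusted p = 0.0387) than with inhibitor. Without inhibitor replicate 2, with no block, those values turned to 0.14 and 0.34. Mmp10 stood at 3.15 and 9.64 CPM with TGFb1+BMP4, 12.2 and 17.9 with TGFb1, 8.94 and 34.9 with BMP4+inhibitor and 3.598 and 15.2 with inhibitor, with overlap between all groups except TGFb1+BMP4 and TGFb1. TGFb1+BMP4 over BMP4+inhibitor gave -1.51 ± 0.83 for Mmp10 (adjusted p = 0.218, with the block 0.0116).

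Collagenases make the first cut in fibrillar collagen. Mmp13, the main interstitial collagenase of mice, stood at 6.10 and 28.9 CPM with TGFb1+BMP4, 7.85 and 13.3 with TGFb1, 4.55 and 38.8 with BMP4+inhibitor and 11.1 and 38.8 with inhibitor, with replicate 2 higher and all groups overlapping. Mmp8, the neutrophil collagenase, lay between 0.50 and 5.60 CPM. It passed only with the block, for BMP4+inhibitor over inhibitor (0.87 ± 0.79, adjusted p = 0.529, with the block 0.0425). Mmp1a and Mmp1b, related genes whose reads may be split where their sequences match, reached at most 0.250 and 0.150 CPM and were not tested.

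Mmp13, Mmp8, Mmp3 and Mmp10 belong to a run of 10 Mmp genes on chromosome 9, in the order Mmp13, Mmp12, Mmp1b, Mmp3, Mmp1a, Mmp10, Mmp8, Mmp27, Mmp20 and Mmp7, from 7272514 to 7699585. Of these 10, 5 were tested, and 0 were called in any of the 6 comparisons, with 0 at an unadjusted p under 0.05 in any of them, where 18.96% to 55.3% of all tested genes were at such a p. The tested members elsewhere in the genome numbered 29, of which 17 rose and 3 fell with TGFb1+BMP4 over inhibitor. All 5 tested cluster genes were higher in replicate 2 than in replicate 1 in all 4 groups, and are among the 20 of 34 tested members of which this holds. Leaving the interaction aside, standard errors were 0.51 to 1.11 in the cluster. Those of tested members elsewhere ran from 0.14 for Mmp14 to 1.03 for Adamts2. With the block, calls in the cluster were 2 higher with BMP4+inhibitor over inhibitor (Mmp3 and Mmp8), 1 higher and 1 lower with TGFb1 over inhibitor (Mmp12 and Mmp3), 1 lower with TGFb1+BMP4 over inhibitor (Mmp3), 2 lower with TGFb1+BMP4 over BMP4+inhibitor (Mmp3 and Mmp10), and 1 negative interaction of BMP4 with TGFb1 (Mmp10). Mmp12, the macrophage elastase, lay between 0.450 and 4.10 CPM, with its highest values in TGFb1 organoids, 1.70 and 4.10 CPM (TGFb1 over inhibitor 1.12 ± 0.51, adjusted p = 0.121, with the block 0.00406). Of the macrophage markers, Adgre1 reached at most 0.799 CPM and Mrc1 at most 1.649 CPM, both in TGFb1+BMP4 replicate 2. Cd14 and Itgam were higher in the groups with TGFb1, and Cd68 and Csf1r were higher with inhibitor, as given above. Their part in the Mmp12 values was not tested.

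**Figure D2:**
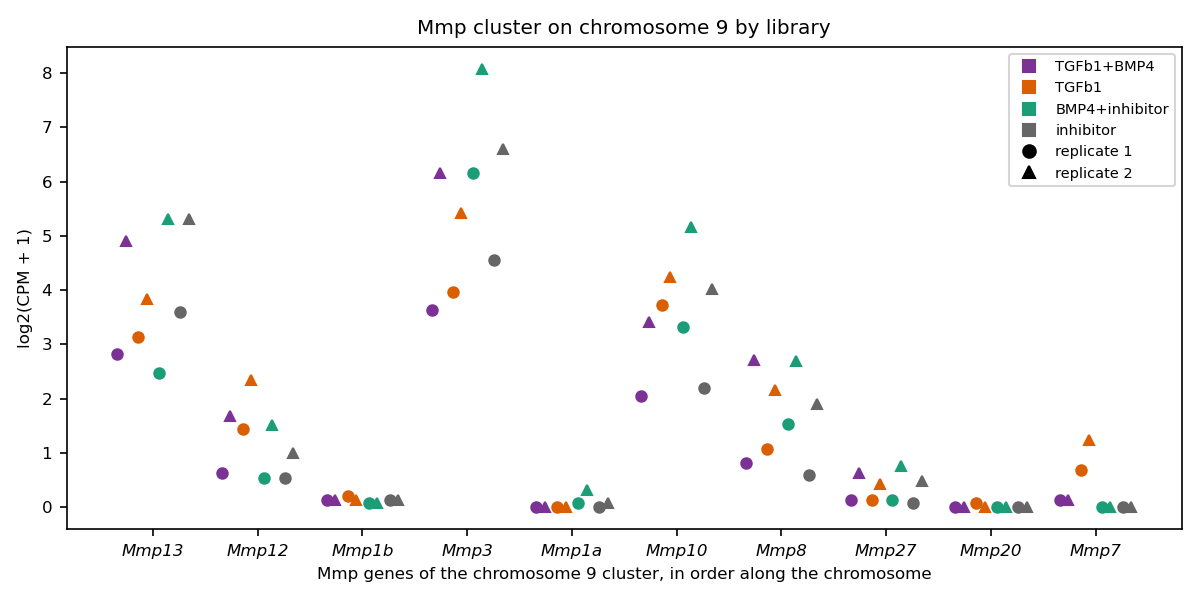
Log2(CPM + 1) of the 10 Mmp genes of the chromosome 9 cluster, in order along the chromosome, in each library; colours are groups, circles replicate 1 and triangles replicate 2. For the 5 tested genes, Mmp13, Mmp12, Mmp3, Mmp10 and Mmp8, the triangle lies above the circle of its group throughout, and Mmp7 is above 1 CPM in 1 library only.

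The promoters of the cluster and of the other members were compared by motif. The 250 bases before the start of each gene were taken from RefSeq for build GRCm38.p6, where 32 of the 46 members had an entry, 10 of them in the cluster. The members without an entry, Mmp9, Mmp2 and Mmp19 among them, all lay outside the cluster, and their promoters were not searched. Motifs were searched as fixed letters on both strands, and a match describes letters only. The AP-1 letters TGACTCA stood in 7 of 10 cluster promoters and 0 of 22 others, and in 4.46% of all 32851 promoters. The TATA letters TATAAA stood in 7 of 10 and 2 of 22 (12.37% of all), and the GC box GGGCGG in 0 of 10 and 16 of 22 (32.74% of all). The RUNX letters TGTGGT stood in 4 of 10 and 2 of 22 (14.05%) and the SMAD letters CAGACA in 5 of 10 and 0 of 22 (17.13%). The TGFb inhibitory element, a sequence named from TGFb-repressed protease genes, was in none of the 32 (0.79% of all). Sequence farther than 250 bases from the start was not searched, so its absence from these genes cannot be read from this. In these member promoters no match overlapped one of another motif, and the only overlap was between a pair of GC boxes in Adamts14. Cluster promoters are shown first, for their shared AP-1 letters, with AP-1 (TGACTCA or its reverse TGAGTCA) and TATAAA, which Mmp12 lacks, in capitals:
Mmp13 (chr9:7272264-7272513, + strand): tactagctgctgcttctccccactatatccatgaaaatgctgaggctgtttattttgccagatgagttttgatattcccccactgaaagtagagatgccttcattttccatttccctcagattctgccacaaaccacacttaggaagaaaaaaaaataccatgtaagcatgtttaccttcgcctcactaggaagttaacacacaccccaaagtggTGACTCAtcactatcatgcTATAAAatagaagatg
Mmp3 (chr9:7445572-7445821, + strand): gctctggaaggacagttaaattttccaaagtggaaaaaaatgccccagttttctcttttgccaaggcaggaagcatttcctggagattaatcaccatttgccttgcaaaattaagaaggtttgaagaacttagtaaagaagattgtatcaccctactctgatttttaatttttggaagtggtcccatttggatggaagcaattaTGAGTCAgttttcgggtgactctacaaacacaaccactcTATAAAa
Mmp10 (chr9:7502092-7502341, + strand): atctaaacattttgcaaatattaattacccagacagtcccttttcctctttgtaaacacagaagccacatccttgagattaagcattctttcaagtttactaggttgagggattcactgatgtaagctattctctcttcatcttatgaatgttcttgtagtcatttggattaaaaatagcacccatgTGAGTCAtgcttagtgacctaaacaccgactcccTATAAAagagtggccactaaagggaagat
Mmp12 (chr9:7347124-7347373, + strand): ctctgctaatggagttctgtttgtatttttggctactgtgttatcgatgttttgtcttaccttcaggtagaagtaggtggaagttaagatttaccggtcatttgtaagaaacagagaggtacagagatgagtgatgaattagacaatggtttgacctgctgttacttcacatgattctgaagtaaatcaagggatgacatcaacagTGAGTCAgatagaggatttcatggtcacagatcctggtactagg

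The AP-1 match began 35 bases before the start in Mmp13, 46 in Mmp3, 63 in Mmp10 and 44 in Mmp12. For contrast, promoters of members outside the cluster that were called in several comparisons follow, with the GC box (GGGCGG or its reverse CCGCCC) in capitals. Their GC content was 55.2% for Mmp14, 63.6% for Mmp15, 65.6% for Timp3 and 62.0% for Mmp28, against 40.4%, 37.6%, 37.2% and 39.6% for the cluster promoters printed above:
Mmp14 (chr14:54431348-54431597, + strand): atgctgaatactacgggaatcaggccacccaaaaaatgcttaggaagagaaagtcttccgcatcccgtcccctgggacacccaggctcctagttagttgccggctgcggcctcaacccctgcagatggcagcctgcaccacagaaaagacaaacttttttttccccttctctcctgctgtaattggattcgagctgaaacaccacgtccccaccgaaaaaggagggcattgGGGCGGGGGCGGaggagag
Mmp15 (chr8:95352046-95352295, + strand): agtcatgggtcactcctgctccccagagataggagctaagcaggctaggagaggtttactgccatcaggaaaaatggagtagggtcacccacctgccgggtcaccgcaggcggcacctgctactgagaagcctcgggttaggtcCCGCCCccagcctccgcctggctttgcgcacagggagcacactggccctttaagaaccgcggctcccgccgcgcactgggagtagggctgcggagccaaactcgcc
Timp3 (chr10:86300162-86300411, + strand): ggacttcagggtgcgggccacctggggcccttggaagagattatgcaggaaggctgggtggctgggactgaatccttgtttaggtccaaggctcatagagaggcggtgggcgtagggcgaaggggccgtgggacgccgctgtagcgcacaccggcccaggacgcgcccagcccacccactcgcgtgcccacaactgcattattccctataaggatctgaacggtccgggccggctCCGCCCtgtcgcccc
Mmp28 (chr11:83463041-83463290, - strand): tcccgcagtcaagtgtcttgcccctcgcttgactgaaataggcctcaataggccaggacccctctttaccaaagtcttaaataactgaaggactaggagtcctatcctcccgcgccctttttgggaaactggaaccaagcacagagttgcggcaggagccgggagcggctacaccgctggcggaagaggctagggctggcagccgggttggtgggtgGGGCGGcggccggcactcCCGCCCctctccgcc

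Among the remaining Mmp genes, Mmp28 and Mmp19 were called. Mmp28 (chr11:83440768-83463071, - strand), epilysin, an enzyme found in epidermal keratinocytes and other epithelia, stood at 41.9 and 35.4 CPM with TGFb1+BMP4, 7.75 and 10.99 with TGFb1, 121 and 116 with BMP4+inhibitor and 61.3 and 77.1 with inhibitor. The groups were apart from each other, lowest with TGFb1 and highest with BMP4+inhibitor. Mmp28 fell by 2.77 on the log2 scale with TGFb1 over inhibitor (SE 0.19, adjusted p = 0.000335) and by 0.82 with TGFb1+BMP4 over inhibitor (SE 0.19, adjusted p = 0.0142). BMP4 on top of TGFb1 raised it by 1.95 ± 0.19 (adjusted p = 0.0124), in a comparison where 3 members rose and 0 fell, and 0.921% of all tested genes rose and 1.09% fell. With the inhibitor present, BMP4 gave 0.78 ± 0.19 (adjusted p = 0.057, with the block 0.0278). TGFb1+BMP4 organoids lay below BMP4+inhibitor organoids, by -1.60 ± 0.19 (adjusted p = 0.00219), in a comparison where 9 members rose and 2 fell, and 17.3% of all tested genes rose and 10.9% fell.

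The Mmp28 calls for TGFb1 over inhibitor and for TGFb1+BMP4 over BMP4+inhibitor held with each library left out. The call for TGFb1+BMP4 over TGFb1 did not hold without either TGFb1+BMP4 library (0.0738 and 0.0617) or in a fit of those groups alone (0.0867), and that for TGFb1+BMP4 over inhibitor not without replicate 2 of either group (0.0835 and 0.0718). Of the Mmp28 exon bases, 12.0% overlap 1700020L24Rik on the other strand, which stood at 10.99 and 8.15 CPM, 1.80 and 2.10 CPM, 28.8 and 27.6 CPM, and 14.1 and 18.4 CPM in the same order of groups. Reads of such a pair cannot be told apart where strand is not used.

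Mmp19 (chr10:128790910-128800824, + strand), an enzyme of basement membrane turnover, stood at 7.90 and 29.8 CPM with TGFb1+BMP4, 7.70 and 23.3 with TGFb1, 6.05 and 11.3 with BMP4+inhibitor and 2.199 and 2.399 with inhibitor. All 6 libraries with a ligand were above the inhibitor libraries and overlapped among themselves. Mmp19 rose by 2.33 ± 0.69 with TGFb1+BMP4 (adjusted p = 0.0323) and 2.14 ± 0.69 with TGFb1 (adjusted p = 0.0476) over inhibitor, and BMP4+inhibitor gave 1.5 ± 0.69 (adjusted p = 0.222, with the block 0.0379). Both calls ended with no filter (0.0734 and 0.102), without either inhibitor library or without replicate 2 of the ligand group (up to 0.135 for TGFb1+BMP4 and 0.2 for TGFb1). Tmem198b overlaps 22.3% of the Mmp19 exon bases on the other strand and stood at 5.10 to 24.6 CPM. Mmp23 lay between 0.800 and 3.598 CPM and passed only with the block, for TGFb1+BMP4 (0.91 ± 0.34, adjusted p = 0.0641, with the block 0.0171) and TGFb1 (0.81 ± 0.34, adjusted p = 0.0987, with the block 0.0294) over inhibitor.

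Mmp7, matrilysin, an enzyme of glandular and injured epithelia, had 0.10 and 0.10 CPM with TGFb1+BMP4, 0.600 and 1.35 with TGFb1, and was at 0 in both BMP4+inhibitor and both inhibitor libraries. Only 1 library reached 1 CPM, so it was not tested here. In the authors' deposited table, which has 1 test per gene over all groups, its FDR was 0.0118. That table gave an FDR under 0.05 for 6 members, Mmp14 (0.00331), Adamts7 (0.00336), Mmp28 (0.00412), Adamts15 (0.0116), Mmp7 and Timp4 (0.0385). The share of all 52636 genes was 8.79%, a base that includes 20292 genes at 0 in every library. The remaining Mmp genes were untested, with maxima of 0.700 CPM for Mmp27, 0.10 CPM for Mmp21 and 0.05 CPM for Mmp20.

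**Figure D3:**
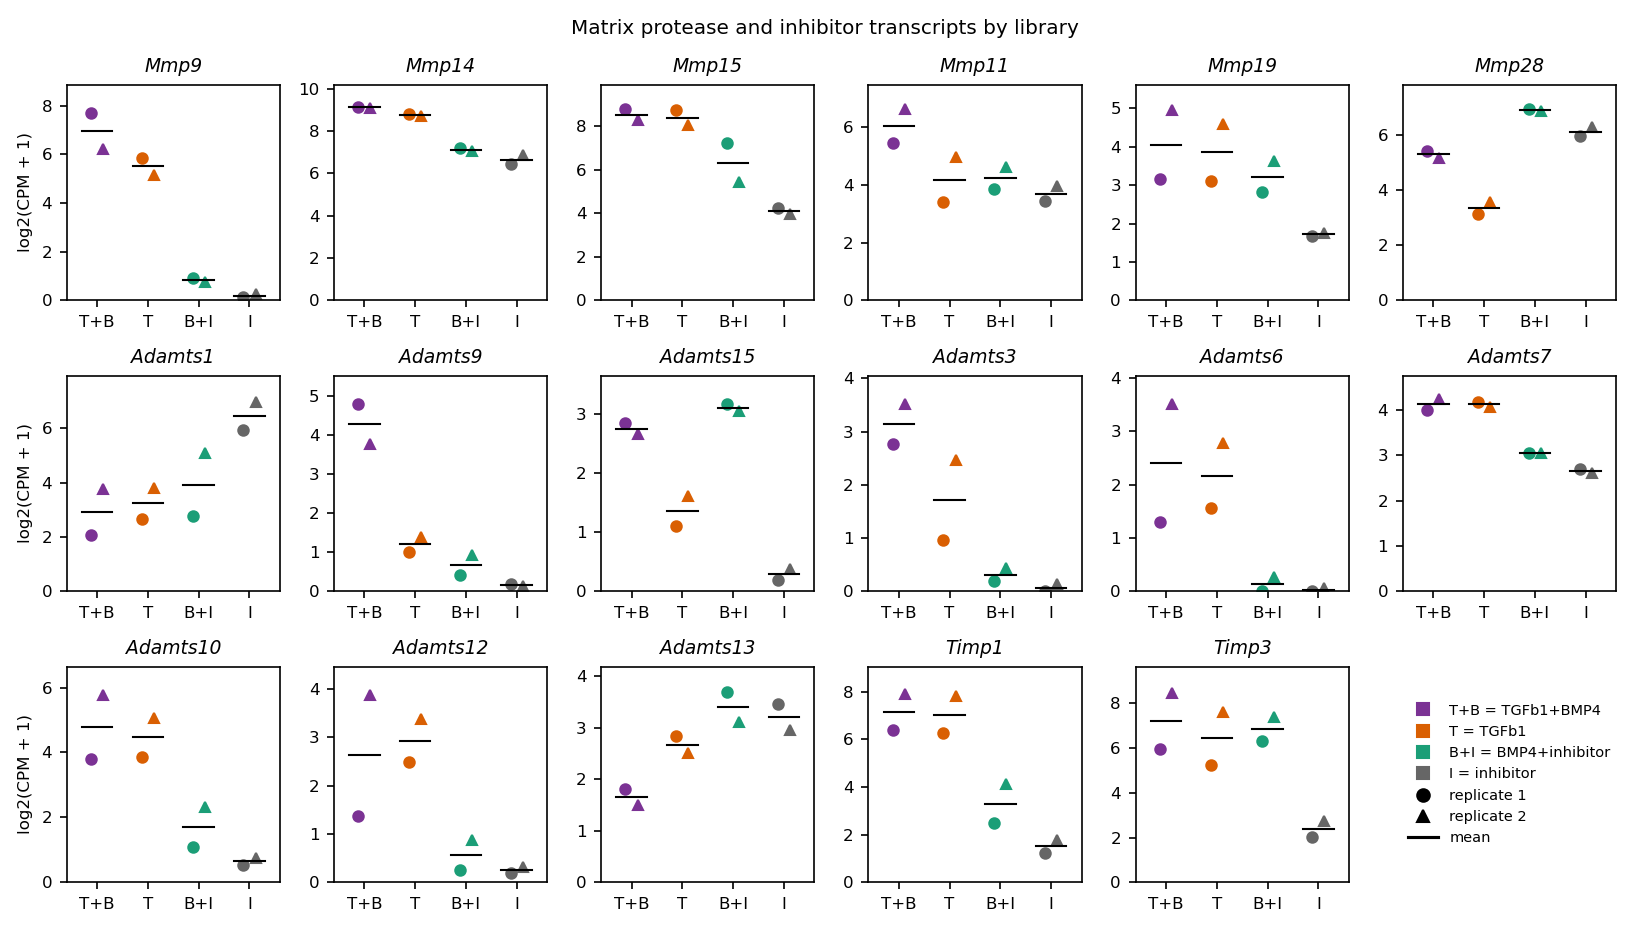
Log2(CPM + 1) in each library for the 17 members that were called in at least 1 comparison and averaged 5 CPM or more in at least 1 group; lines are group means, circles replicate 1 and triangles replicate 2. Mmp9, Mmp14, Timp1 and Adamts10 are high in both groups with TGFb1, Adamts9 mainly in TGFb1+BMP4, Adamts15 in both groups with BMP4, and Adamts1 is highest with inhibitor.

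ADAMTS enzymes that cut aggrecan and versican moved in different directions. Adamts1 (chr16:85793827-85803113, - strand), a versican-cleaving enzyme needed for ovulation in mice, stood at 3.25 and 12.6 CPM with TGFb1+BMP4, 5.40 and 12.9 with TGFb1, 5.75 and 32.8 with BMP4+inhibitor and 60.0 and 124 with inhibitor. The inhibitor libraries lay above all 6 others, which overlapped, and replicate 2 was higher in every group. Adamts1 fell by 3.52 on the log2 scale with TGFb1+BMP4 (SE 0.9, adjusted p = 0.0194) and by 3.21 with TGFb1 (SE 0.9, adjusted p = 0.0305) over inhibitor. The value with BMP4+inhibitor was -2.53 ± 0.9 (adjusted p = 0.135, with the block 0.00363). The TGFb1 call did not hold with no filter (0.0712) or with any of the 4 libraries left out (0.0534 to 0.154), nor the TGFb1+BMP4 call without either inhibitor library or TGFb1+BMP4 replicate 1 (0.0538 to 0.107). The difference of TGFb1+BMP4 over BMP4+inhibitor was -0.99 ± 0.9 (adjusted p = 0.447, with the block 0.0408).

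Adamts9 (chr6:92772699-92943492, - strand), which cuts versican and aggrecan, stood at 26.8 and 12.6 CPM with TGFb1+BMP4, 0.999 and 1.65 with TGFb1, 0.35 and 0.899 with BMP4+inhibitor and 0.150 and 0.10 with inhibitor. The groups did not overlap, and the TGFb1+BMP4 libraries stood well above the rest. Adamts9 rose by 4.11 ± 0.37 with TGFb1+BMP4 over inhibitor (adjusted p = 0.000447), by 3.08 ± 0.37 over TGFb1 (adjusted p = 0.0188) and by 3.6 ± 0.37 over BMP4+inhibitor (adjusted p = 0.00128). TGFb1 over inhibitor gave 1.03 ± 0.37 (adjusted p = 0.0627), and BMP4+inhibitor over inhibitor 0.51 ± 0.37 (adjusted p = 0.416). The call over TGFb1 did not hold with no filter (0.0608), in a fit of those groups alone (0.11), without either TGFb1 library or without TGFb1+BMP4 replicate 1 (0.0647 to 0.0658), while the other calls held with each library left out. The inhibitor libraries were at or below the floor of 0.15 CPM, and with a pseudocount of 0.1 the called values were 6.37, 3.74 and 4.79. The antisense transcripts A730049H05Rik and Gm15737 overlap 9.2% and 2.8% of its exon bases and reached 1.90 and 2.25 CPM, both in TGFb1+BMP4 replicate 1.

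Adamts15 (chr9:30899155-30922452, - strand), an enzyme that cuts aggrecan and versican, stood at 6.196 and 5.346 CPM with TGFb1+BMP4, 1.15 and 2.05 with TGFb1, 8.045 and 7.30 with BMP4+inhibitor and 0.150 and 0.30 with inhibitor. The groups did not overlap, and both groups with BMP4 stood above both without it. Adamts15 rose by 2.82 ± 0.22 with BMP4+inhibitor (adjusted p = 0.00219), 2.47 ± 0.22 with TGFb1+BMP4 (adjusted p = 0.000447) and 1.07 ± 0.22 with TGFb1 (adjusted p = 0.011) over inhibitor. It rose by 1.40 ± 0.22 when BMP4 was added to TGFb1 (adjusted p = 0.0352), but this did not hold with a pseudocount of 0.1 (0.0689), with no filter (0.108), in a fit of those groups alone (0.139) or with any of the 4 libraries left out (0.0695 to 0.158). The TGFb1 call was lost without inhibitor replicate 1 or TGFb1 replicate 2 (0.0631 and 0.0562). With a pseudocount of 0.1, the values over inhibitor were 4.62, 4.21 and 2.37, in the order just given. Its neighbour Adamts8 was not tested and reached 0.10 CPM.

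Adamts4 and Adamts5, the enzymes best known for aggrecan loss in cartilage, were not called. Adamts4 stood at 5.55 and 31.8 CPM with TGFb1+BMP4, 6.75 and 14.8 with TGFb1, 2.60 and 8.60 with BMP4+inhibitor and 2.00 and 4.70 with inhibitor, with replicate 2 higher in each group. With the block it was higher with TGFb1+BMP4 (1.83 ± 0.85 without it, adjusted p = 0.12, with the block 0.00392) and TGFb1 (1.42 ± 0.85, adjusted p = 0.219, with the block 0.0123) than with inhibitor. It was also higher with TGFb1+BMP4 than with BMP4+inhibitor (1.32 ± 0.85, adjusted p = 0.288, with the block 0.021). Adamts5 lay between 0.10 and 4.65 CPM and likewise passed only with the block, for TGFb1+BMP4 (1.12 ± 0.69, adjusted p = 0.217, with the block 0.0308) and TGFb1 (1.02 ± 0.69, adjusted p = 0.271, with the block 0.0466) over inhibitor. Adamts20 reached 0.450 CPM and was not tested.

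Procollagen N-proteinases remove the amino-terminal propeptide of fibrillar procollagen, and ADAMTS3 also takes part in activating the lymphatic growth factor VEGF-C. Adamts3 (chr5:89677087-89883334, - strand) stood at 5.80 and 10.4 CPM with TGFb1+BMP4, 0.949 and 4.55 with TGFb1, 0.150 and 0.35 with BMP4+inhibitor and 0 and 0.10 with inhibitor. The groups did not overlap and lay in this order. Adamts3 rose by 3.07 ± 0.49 with TGFb1+BMP4 over inhibitor (adjusted p = 0.00355) and by 2.82 ± 0.49 over BMP4+inhibitor (adjusted p = 0.00816), and both calls held with each library left out. TGFb1 over inhibitor gave a rise of 1.65 ± 0.49 (adjusted p = 0.0374) that did not hold with no filter (0.0844), in a fit of those groups alone (0.0575), or without either inhibitor library or TGFb1 replicate 2 (0.116 to 0.137). The inhibitor libraries lay under the floor, and with a pseudocount of 0.1 the 3 values were 5.80, 4.55 and 3.96.

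Adamts2, the main N-proteinase of skin collagen, stood at 7.55 and 38.1 CPM with TGFb1+BMP4, 5.70 and 17.9 with TGFb1, 3.598 and 20.0 with BMP4+inhibitor and 0.949 and 4.00 with inhibitor. Replicate 2 was several times higher than replicate 1 in every group, and of the ligand groups only BMP4+inhibitor overlapped inhibitor. It passed only with the block, over inhibitor for TGFb1+BMP4 (2.55 ± 1.03, adjusted p = 0.0817, with the block 0.000338), TGFb1 (1.85 ± 1.03, adjusted p = 0.189, with the block 0.00153) and BMP4+inhibitor (1.65 ± 1.03, adjusted p = 0.351, with the block 0.00762). TGFb1+BMP4 over BMP4+inhibitor was 0.90 ± 1.03 (adjusted p = 0.546, with the block 0.03). Adamts14 lay between 0.550 and 2.60 CPM and passed only with the block, for TGFb1 over inhibitor (0.81 ± 0.37, adjusted p = 0.121, with the block 0.0331).

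Of the 9 other Adamts genes, 7 were tested, and 6 rose and 1 fell with TGFb1+BMP4 over inhibitor. Adamts10 (chr17:33524204-33553782, + strand), a fibrillin-binding protease mutated in Weill-Marchesani syndrome in humans, stood at 12.9 and 54.0 CPM with TGFb1+BMP4, 13.6 and 32.3 with TGFb1, 1.15 and 4.00 with BMP4+inhibitor and 0.450 and 0.700 with inhibitor. The groups with TGFb1 overlapped each other and lay above BMP4+inhibitor, which lay above inhibitor. Adamts10 rose by 4.14 ± 0.73 with TGFb1+BMP4 (adjusted p = 0.00524) and 3.81 ± 0.73 with TGFb1 (adjusted p = 0.00873) over inhibitor, the second of which was lost without inhibitor replicate 1 (0.0523). With a pseudocount of 0.1 these values were 5.32 and 4.99. In TGFb1+BMP4 over BMP4+inhibitor the rise was 3.08 ± 0.73 (adjusted p = 0.0241), but this call ended with no filter (0.0568), in a fit of those groups alone (0.0699), or without BMP4+inhibitor replicate 1 or TGFb1+BMP4 replicate 2 (0.0938 and 0.0856).

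Adamts6 (chr13:104287835-104496695, + strand), a close paralog of Adamts10, stood at 1.45 and 10.3 CPM with TGFb1+BMP4, 1.95 and 5.85 with TGFb1, 0 and 0.20 with BMP4+inhibitor and 0 and 0.05 with inhibitor. Libraries with TGFb1 overlapped each other and were all above the rest. It rose by 2.36 ± 0.71 with TGFb1+BMP4 over inhibitor (adjusted p = 0.0343), or 5.04 with a pseudocount of 0.1. That call did not hold with no filter (0.0774), in a fit of those groups alone (0.0521), or without either inhibitor library or TGFb1+BMP4 replicate 2 (0.0984 to 0.125). TGFb1 over inhibitor gave 2.13 ± 0.71 (adjusted p = 0.0531, with the block 0.0116), and TGFb1+BMP4 over BMP4+inhibitor 2.27 ± 0.71 (adjusted p = 0.0563, with the block 0.0124).

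Adamts7 (chr9:90163069-90208071, + strand) and Adamts12 (chr15:11064790-11349231, + strand) are paralogs that can cut cartilage oligomeric matrix protein, the product of Comp. Adamts7 stood at 15.0 and 17.9 CPM with TGFb1+BMP4, 17.1 and 15.8 with TGFb1, 7.295 and 7.296 with BMP4+inhibitor and 5.45 and 5.10 with inhibitor. The groups with TGFb1 overlapped and stood above BMP4+inhibitor, which stood above inhibitor. Adamts7 rose by 1.48 ± 0.15 with TGFb1+BMP4 (adjusted p = 0.000712) and 1.47 ± 0.15 with TGFb1 (adjusted p = 0.00114) over inhibitor. It also rose by 1.07 ± 0.15 with TGFb1+BMP4 over BMP4+inhibitor (adjusted p = 0.00382), and all 3 calls held with each library left out. Tbc1d2b overlaps 1.9% of the Adamts7 exon bases on the other strand. It stood at 192 to 252 CPM in the groups with TGFb1 and 88.9 to 120 CPM in the groups with the inhibitor.

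Adamts12 stood at 1.60 and 13.7 CPM with TGFb1+BMP4, 4.65 and 9.34 with TGFb1, 0.20 and 0.849 with BMP4+inhibitor and 0.150 and 0.250 with inhibitor. Libraries with TGFb1 were above all others, with a wide gap between the replicates of TGFb1+BMP4. It rose by 2.37 ± 0.76 with TGFb1+BMP4 (adjusted p = 0.0424) and 2.67 ± 0.76 with TGFb1 (adjusted p = 0.0324) over inhibitor, or 4.03 and 4.50 with a pseudocount of 0.1. With no filter the adjusted p was 0.0936 and 0.0765, and in a fit of TGFb1+BMP4 and inhibitor alone the first was 0.07. The TGFb1 call did not hold with any of its 4 libraries left out (0.0686 to 0.13), nor the TGFb1+BMP4 call without either inhibitor library or TGFb1+BMP4 replicate 2 (0.0994 to 0.146). TGFb1+BMP4 over BMP4+inhibitor gave 2.05 ± 0.76 (adjusted p = 0.0902, with the block 0.0202).

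Adamts13 (chr2:26973416-27009628, + strand), the von Willebrand factor protease made mainly in liver stellate cells, stood at 2.499 and 1.849 CPM with TGFb1+BMP4, 6.15 and 4.70 with TGFb1, 12.0 and 7.70 with BMP4+inhibitor and 9.99 and 6.80 with inhibitor. TGFb1+BMP4 libraries were the lowest, TGFb1 libraries came next, and the groups with the inhibitor overlapped. Adamts13 fell by 1.55 on the log2 scale with TGFb1+BMP4 over inhibitor (SE 0.28, adjusted p = 0.00571) and by 1.75 over BMP4+inhibitor (SE 0.28, adjusted p = 0.00614), and both calls held with each library left out. The value was -0.54 ± 0.28 with TGFb1 over inhibitor (adjusted p = 0.17, with the block 0.0273) and -1.01 ± 0.28 with TGFb1+BMP4 over TGFb1 (adjusted p = 0.132, with the block 0.0179).

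Adamts17 and Adamts18 were called at lower levels. Adamts17, another gene of Weill-Marchesani-like syndrome in humans, stood at 2.499 and 2.199 CPM with TGFb1+BMP4, 3.698 and 2.698 with TGFb1, 2.598 and 2.399 with BMP4+inhibitor and 0.999 and 0.75 with inhibitor, where the inhibitor libraries were the lowest. It rose over inhibitor by 0.84 ± 0.19 with TGFb1+BMP4 (adjusted p = 0.013), 1.16 ± 0.19 with TGFb1 (adjusted p = 0.00522) and 0.90 ± 0.19 with BMP4+inhibitor (adjusted p = 0.0385), the second being 1.75 with a pseudocount of 0.1. The TGFb1+BMP4 call did not hold without inhibitor replicate 2 or TGFb1+BMP4 replicate 1 (0.0746 and 0.0534), and the BMP4+inhibitor call did not hold with any of its 4 libraries left out (0.0625 to 0.204), with no filter (0.103) or in a fit of those groups alone (0.0707). Adamts18 had 4.55 and 1.35 CPM with TGFb1+BMP4 and at most 0.250 CPM in the other 6 libraries. It rose by 1.82 ± 0.38 over inhibitor (adjusted p = 0.00923; 0.0529 without inhibitor replicate 2) and 1.62 ± 0.38 over BMP4+inhibitor (adjusted p = 0.0218; 0.0851 in a fit of those groups alone, 0.0765 and 0.0724 without either BMP4+inhibitor library). TGFb1+BMP4 over TGFb1 gave 1.75 ± 0.38 (adjusted p = 0.0767, with the block 0.0349), and with a pseudocount of 0.1 the values over inhibitor and BMP4+inhibitor were 4.41 and 3.29. Adamts16 and Adamts19 were not tested and reached 0.400 and 0.05 CPM.

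Among the inhibitors, Timp1, Timp3 and Timp4 rose with TGFb1+BMP4 and with TGFb1 over inhibitor, and Timp2 was not called. Timp1 (chrX:20870166-20874735, + strand), a secreted inhibitor made by many cells on stimulation, stood at 83.8 and 237 CPM with TGFb1+BMP4, 75.7 and 222 with TGFb1, 4.65 and 16.3 with BMP4+inhibitor and 1.35 and 2.45 with inhibitor. The groups with TGFb1 overlapped each other, stood above BMP4+inhibitor, and that group stood above inhibitor. Timp1 rose by 5.64 ± 0.76 with TGFb1+BMP4 (adjusted p = 0.00189) and 5.52 ± 0.76 with TGFb1 (adjusted p = 0.00281) over inhibitor, with each library left out as well. TGFb1+BMP4 over BMP4+inhibitor gave 3.84 ± 0.76 (adjusted p = 0.0126), a call lost without TGFb1+BMP4 replicate 2 (0.0625). The value with BMP4+inhibitor over inhibitor was 1.80 ± 0.76 (adjusted p = 0.191, with the block 0.00652).

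Timp3 (chr10:86300372-86349506, + strand), the matrix-bound inhibitor, stood at 61.6 and 349.9 CPM with TGFb1+BMP4, 36.9 and 197 with TGFb1, 79.7 and 167 with BMP4+inhibitor and 3.15 and 5.65 with inhibitor. All 6 libraries with a ligand lay above the inhibitor libraries and overlapped among themselves. Timp3 rose over inhibitor by 4.82 ± 1.01 with TGFb1+BMP4 (adjusted p = 0.00972), 4.04 ± 1.01 with TGFb1 (adjusted p = 0.0211) and 4.47 ± 1.01 with BMP4+inhibitor (adjusted p = 0.046). These calls were lost for TGFb1+BMP4 without inhibitor replicate 1 (0.0604), for TGFb1 with no filter (0.0522) or without either inhibitor library or TGFb1 replicate 2 (0.076 to 0.102), and for BMP4+inhibitor with no filter (0.104) or with any of its 4 libraries left out (0.102 to 0.192). Syn3, within which Timp3 lies on the other strand, overlaps 21.3% of the Timp3 exon bases and stood at 26.2 and 137 CPM, 16.1 and 78.2 CPM, 30.3 and 65.6 CPM, and 1.75 and 2.35 CPM in the same order of groups. The share of reads that belongs to each of the pair cannot be told apart without the strand setting.

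Timp2, a secreted inhibitor that also takes part in Mmp2 activation by Mmp14, stood at 166 and 288 CPM with TGFb1+BMP4, 353 and 341 with TGFb1, 227 and 222 with BMP4+inhibitor and 233 and 223 with inhibitor. The TGFb1 libraries were the highest, and the TGFb1+BMP4 libraries lay on either side of the groups with the inhibitor. TGFb1 over inhibitor gave 0.60 ± 0.23 (adjusted p = 0.0806) and TGFb1+BMP4 over TGFb1 -0.66 ± 0.23 (adjusted p = 0.195), and no comparison passed with the block either. Timp4 lay between 0.400 and 1.60 CPM. It rose by 0.78 ± 0.19 with TGFb1+BMP4 (adjusted p = 0.0151) and 0.75 ± 0.19 with TGFb1 (adjusted p = 0.0202) over inhibitor, or 1.56 and 1.51 with a pseudocount of 0.1. The TGFb1+BMP4 call did not hold without either inhibitor library or TGFb1+BMP4 replicate 2 (up to 0.0741), and the TGFb1 call not with any of its 4 libraries left out (0.0722 to 0.0988).

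Levels between genes were compared per kilobase of exon, as mean CPM per kb. In TGFb1+BMP4 organoids Timp1 was highest, with 180.6 CPM per kb, followed by Mmp14 with 92.9, Mmp2 with 92.2, Mmp15 with 69.9, Timp2 with 58.3 and Mmp9 with 39.4. TGFb1 organoids were led by Timp1 with 167.7 CPM per kb, Mmp2 with 95.9, Timp2 with 89.1 and Mmp14 with 71.6. BMP4+inhibitor organoids were led by Mmp3 with 94.5 CPM per kb, Timp2 with 57.6, Mmp2 with 42.3 and Mmp28 with 30.6. In inhibitor organoids Timp2 was highest, with 58.5 CPM per kb, followed by Mmp2 with 35.6, Mmp3 with 32.9, Mmp28 with 17.9 and Adamts1 with 17.4. The replicates of Mmp2 and Mmp3 differ by as much as these steps in several groups, so the order among neighbours is a description.

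BMP4 was compared in the presence of TGFb1 and in the presence of the inhibitor. Added to TGFb1, it raised Adamts9, Mmp28 and Adamts15, and with the block 5 members were higher and 1 lower (3.55% and 3.38% of all tested genes), with Mmp11 and Adamts18 added to the higher ones and Adamts13 lower. In BMP4+inhibitor organoids it raised Adamts15, Adamts17 and Timp3 over inhibitor. The difference between these effects, the interaction, was called for 0 members, with 8 of 34 at an unadjusted p under 0.05, where 18.96% of all tested genes were at an unadjusted p under 0.05 and 1.29% were called. With the block, 9 members passed for the interaction (3 positive, 6 negative, and 6.9% of all tested genes). For Timp3 the interaction was -3.70 ± 1.43 (adjusted p = 0.24, with the block 0.0263), from BMP4 effects of 0.77 with TGFb1 and 4.47 with the inhibitor. For Adamts9 it was 2.57 ± 0.52 (adjusted p = 0.0776, with the block 0.039), from BMP4 effects of 3.08 with TGFb1 and 0.51 with the inhibitor. A pseudocount of 0.1, without the block, gave an Adamts9 interaction of 2.15 (adjusted p = 0.222), from BMP4 effects of 3.74 and 1.58. The interaction median was -0.46 for tested members and 0.119 for all tested genes, and median-of-ratios scaling shifted the value for all genes by -0.111.

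**Figure D4:**
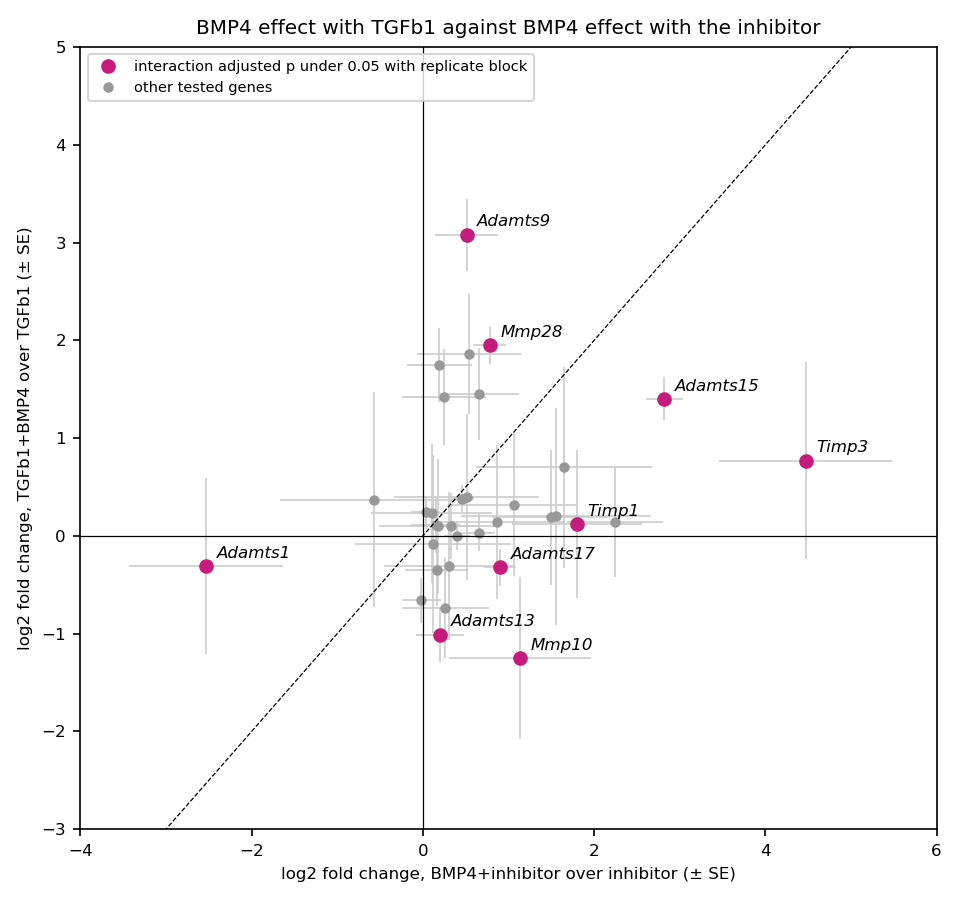
Log2 fold change (CPM + 1) of TGFb1+BMP4 over TGFb1 (y axis) against that of BMP4+inhibitor over inhibitor (x axis) for the 34 tested genes, with standard errors. The dashed line marks equal effects, and the 9 coloured genes passed for the interaction with the replicate block only; Adamts9 and Mmp28 lie above the line, and Timp3, Adamts15 and Mmp10 below it.

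TGFb1 was also compared in organoids that all received BMP4. In TGFb1+BMP4 over BMP4+inhibitor organoids the members that rose were Mmp9, Mmp14, Mmp15, Adamts3, Adamts7, Adamts9, Adamts10, Adamts18 and Timp1, and those that fell were Mmp28 and Adamts13. With the block 14 were higher and 6 lower (25.7% and 15.4% of all tested genes). The median of tested members was 0.70, and that of all tested genes 0.121. Adamts15, Adamts17, Timp3 and Timp4, all called with TGFb1+BMP4 over inhibitor, gave values from -0.36 to 0.35 in this comparison.

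Replicate number went along with level for most members. Of the 34 tested members, 20 were higher in replicate 2 in all 4 groups, where 22.5% of all tested genes were (3637 genes), and 3 were lower in replicate 2 throughout (Adamts13, Adamts17 and Mmp15). Among the fibroblast markers 13 of 14 were higher in replicate 2 in all groups, with a median log2 ratio of 1.75, and among muscle markers 7 of 10, with 1.68. The median for squamous epithelial markers was -0.07. Members with the largest ratios were Mmp3, Mmp13, Adamts2, Timp3 and Mmp2. The part of stromal cells in the differences between replicates was not tested.

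**Figure D5:**
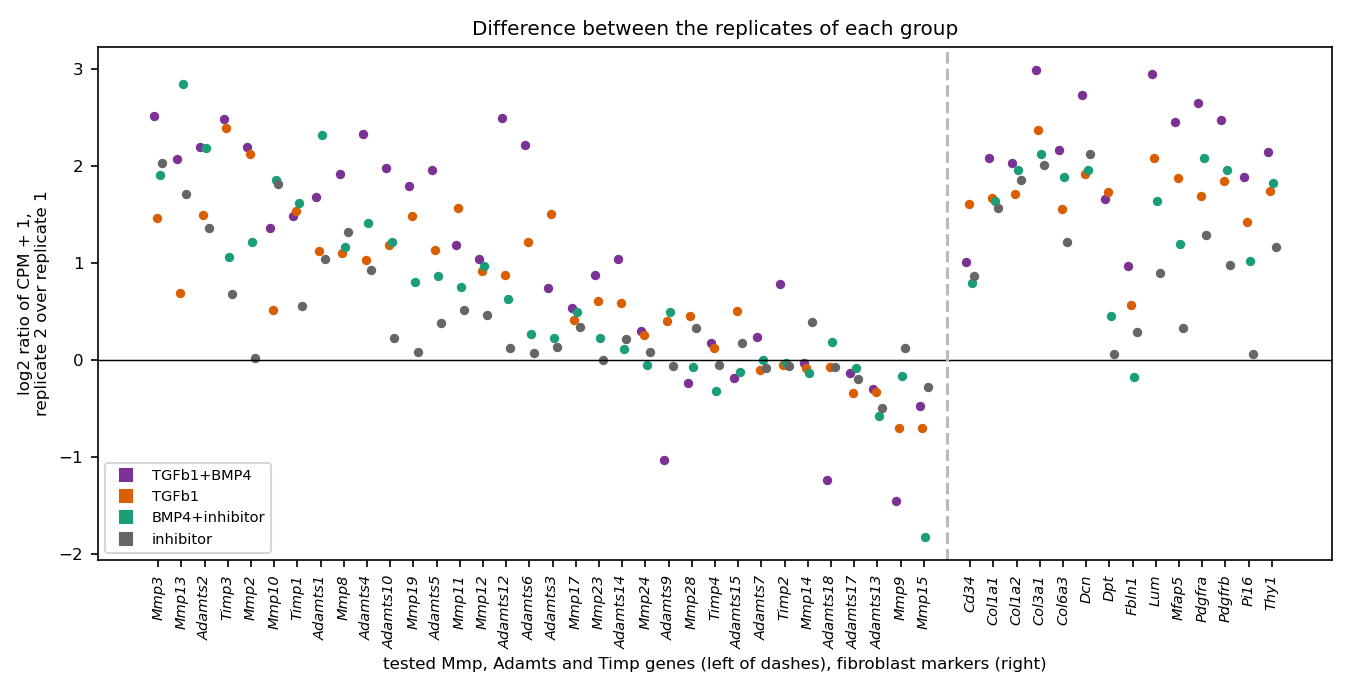
Log2 ratio of CPM + 1 of replicate 2 over replicate 1 within each group, for the 34 tested genes ordered by their median (left of the dashes) and for 14 fibroblast markers (right). Points above 0 are higher in replicate 2; the left end of the member genes and nearly all fibroblast markers lie above 0, and Mmp15 and Adamts13 lie below 0 in every group.

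Genes that activate, bind or resemble these enzymes were taken as fixed lists. Their counts stand beside 27.6% of all tested genes that rose and 18.4% that fell with TGFb1+BMP4, 20% and 20% with TGFb1, and 5.49% and 2.91% with BMP4+inhibitor, each over inhibitor. In the plasminogen system, whose protease plasmin activates several proenzymes, genes that rose with TGFb1+BMP4 and with TGFb1 over inhibitor included the urokinase gene Plau (2.53 ± 0.16 and 3.26 ± 0.16), its receptor Plaur (1.62 ± 0.55 and 1.74 ± 0.55) and the tissue activator Plat (2.60 ± 0.32 and 2.84 ± 0.32), all with adjusted p at or under 0.049. Plg, the plasminogen gene itself, was at 0 in every library. With BMP4+inhibitor over inhibitor Plau rose as well (1.28 ± 0.16, adjusted p = 0.00862).

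Of 9 activators and convertases, 3 rose and 3 fell with TGFb1+BMP4, and 4 rose and 2 fell with TGFb1, over inhibitor. The share that rose with TGFb1+BMP4 lay near that of all tested genes. With the block 5 were higher and 3 lower with TGFb1+BMP4, and 6 higher and 2 lower with TGFb1. Furin, which cuts the prodomain of the membrane-type enzymes, Mmp11, Mmp28 and most ADAMTS enzymes, rose by 2.11 ± 0.2 with TGFb1+BMP4 (adjusted p = 0.000488) and 1.13 ± 0.2 with TGFb1 (adjusted p = 0.00609). The related convertase gene Pcsk5 rose by 2.52 ± 0.29 and 2.40 ± 0.29 in the same comparisons, and Pcsk6 fell by 4.38 and 3.91 on the log2 scale. Klk6, a kallikrein, fell in all 3 ligand groups, by 1.70 with TGFb1+BMP4, 1.49 with TGFb1 and 1.39 with BMP4+inhibitor.

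Among 10 other inhibitors and binding partners, 3 rose with TGFb1+BMP4, 4 with TGFb1 and 2 with BMP4+inhibitor over inhibitor, and 0 fell. The share that rose with TGFb1+BMP4 lay near that of all tested genes. With the block 7, 6 and 4 were higher in these comparisons. Thbs1, whose product thrombospondin-1 binds Mmp9 and activates latent TGFb, rose by 5.12 ± 0.36, 5.59 ± 0.36 and 3.53 ± 0.36 in these comparisons (adjusted p = 0.000241, 0.000285 and 0.00489). Reck, a membrane-anchored inhibitor of Mmp9 and Mmp14, gave 1.16 ± 0.66 with TGFb1 over inhibitor (adjusted p = 0.199, with the block 0.0239). The Mmp9-binding lipocalin gene Lcn2 gave 0.10 ± 1.14 in that comparison (adjusted p = 0.954).

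Of 11 ADAM protease genes, 6 rose with TGFb1+BMP4 and 6 with TGFb1 over inhibitor, and 0 fell. Adam12, known from myoblasts and TGFb-stimulated stellate cells, rose by 8.29 ± 0.14 with TGFb1+BMP4, 7.69 ± 0.14 with TGFb1 and 1.80 ± 0.14 with BMP4+inhibitor (adjusted p = 4.36e-06, 7.11e-06 and 0.00219). Adam19 rose by 4.80 ± 0.59 with TGFb1+BMP4 and 3.94 ± 0.59 with TGFb1. All 4 tested genes of the astacin list rose in both comparisons. They included Bmp1, the procollagen C-proteinase (3.04 ± 0.24 and 2.38 ± 0.24), and Tll1, its relative (4.65 ± 0.16 and 6.04 ± 0.16). The others, Pcolce and Pcolce2, encode enhancers of that proteinase and not proteases. Tll1 was also lower when BMP4 was added to TGFb1 (-1.38 ± 0.16, adjusted p = 0.0162).

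Of 4 tested ADAMTS-like genes, 1 rose and 1 fell with TGFb1+BMP4, and 1 rose and 2 fell with TGFb1, over inhibitor. Adamtsl4, a member of this family with no protease domain, rose by 2.35 ± 0.31 with TGFb1+BMP4 and 2.05 ± 0.31 with TGFb1 over inhibitor. Papln, of the same family, fell by 2.39 and 2.30 on the log2 scale in those comparisons and rose by 1.49 ± 0.3 with BMP4+inhibitor (adjusted p = 0.0349). Of 5 tested ADAMTS substrate genes, 3 rose with TGFb1+BMP4 over inhibitor, and all 5 were higher with the block. Those that rose without it were the biglycan gene Bgn (5.02 ± 1.22, adjusted p = 0.0161), the fibronectin gene Fn1 (3.59 ± 1.11, adjusted p = 0.0369) and Comp (2.31 ± 0.55, adjusted p = 0.0155). The versican gene Vcan gave 2.65 ± 1.11 with TGFb1 over inhibitor (adjusted p = 0.0996, with the block 0.00204).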

How the data were processed

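RNA-seq of 8 libraries was analysed. The submitters' processing notes list STAR 2.5.3a, Cell Ranger 3.1.0, HTSeq and edgeR, with builds GRCm38 and mm10. What each did, with the annotation, filters and strand setting, is not given in the sources used here. Deposited whole-number values are a score: read counts scaled by the authors to a common total (20011215 to 20013233 per library) and rounded up, as read from the values. The deposited CPM values equal these divided by their totals, to within 0.0005. Log2 fold changes that the authors deposited were not used, and the authors' deposited p-values and FDR (1 test per gene) were used only where named. Whole reads could not be recovered, so no count test was run. Each library held 23718 to 27476 genes above 0, and 20292 of 52636 genes were at 0 in all. The floor reflects counting error alone, and the lowest values are inflated by rounding.

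Tests used limma 3.58.1 in R 4.3.3 on genes that reached 1 CPM in 2 or more libraries, on log2(CPM + 1), with a mean-variance trend, all 8 libraries, group as the only term and 4 groups of 2, two-sided. The Benjamini-Hochberg adjustment ran over the 16180 genes in each of 6 comparisons. The code was tested on simulated data. Gene positions and exon overlaps came from GENCODE M21 on GRCm38, to which 52489 IDs (99.72%) matched, and promoter sequences from RefSeq on GRCm38.p6. Members called in at least 1 comparison and averaging 5 CPM or more in at least 1 group were described in full. Counts and the median of the plasminogen list are not reported here. The members, gene lists and this rule were chosen with earlier results of these data known. Alternatives were median-of-ratios scaling, no filter, a filter of 1 CPM in 4 libraries, a pseudocount of 0.1, a fit of the compared groups alone, the replicate block, and each library left out.

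The labels number the replicates without stating what a number stands for. After group means were subtracted, libraries with the same number correlated by 0.74 (TGFb1+BMP4 and TGFb1), 0.52 (TGFb1+BMP4 and BMP4+inhibitor), 0.38 (TGFb1+BMP4 and inhibitor), 0.49 (TGFb1 and BMP4+inhibitor), 0.32 (TGFb1 and inhibitor) and 0.6 (BMP4+inhibitor and inhibitor), so the numbers were taken to pair the libraries. Counts of the replicates of a group differed by more than sampling noise (chi-square per gene 24.2 to 49.6).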

Additional observations from a re-analysis of the deposited data

Results flagged for a closer look

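The effect of BMP4 differed between organoids given TGFb1 and organoids given the inhibitor for 9 members, by limma's interaction term with the replicate block and an adjusted p under 0.05. With the block 6.9% of all tested genes passed, and without it 1.29% of all tested genes and 0 members passed. Positive values mean a larger (or less negative) BMP4 effect with TGFb1. The values were 2.57 for Adamts9 (adjusted p = 0.039 with the block, 0.0776 without), 2.22 for Adamts1 (0.0363 and 0.379) and 1.17 for Mmp28 (0.0467 and 0.107). Negative values were -3.70 for Timp3 (0.0263 and 0.24), -2.38 for Mmp10 (0.0351 and 0.32), -1.68 for Timp1 (0.0471 and 0.428), -1.42 for Adamts15 (0.0439 and 0.0927), -1.22 for Adamts17 (0.0335 and 0.0961) and -1.21 for Adamts13 (0.0314 and 0.197). Between the groups without BMP4, TGFb1 organoids were called higher than inhibitor organoids for Adamts15, Adamts17, Timp1 and Timp3, and lower for Adamts1 and Mmp28. No cause of these differences was tested.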

How the results depend on the processing

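The numbers of members called in the comparisons TGFb1+BMP4, TGFb1 and BMP4+inhibitor over inhibitor, TGFb1+BMP4 over TGFb1, TGFb1+BMP4 over BMP4+inhibitor, and interaction were 20, 15, 3, 3, 11 and 0. With the replicate block, which pairs same-numbered libraries, they were 25, 24, 11, 6, 20 and 9. The count for TGFb1+BMP4 over TGFb1 was 1 with no filter and 0 in a fit of those groups alone. With 1 library left out, where the lone library is assumed to vary like the other groups, the counts ranged from 11 to 23, 7 to 12, 1 to 3, 0 to 2, 8 to 12 and 0 to 1. Of 52 calls, 25 held with every library left out, and 52 held with the replicate block and with median-of-ratios scaling. No filter ended 14 calls and fits of the compared groups alone ended 10. Among results called under at least 1 setting, the values that turned sign, none of them called with all libraries and no block, were Adamts1 in TGFb1+BMP4 over BMP4+inhibitor (-2.15 to 0.17 over the libraries left out, positive without BMP4+inhibitor replicate 2), Adamts2 in the same comparison (-0.20 to 1.99, negative without BMP4+inhibitor replicate 1 or TGFb1+BMP4 replicate 2), and, over inhibitor, Adamts14 (-0.06 to 0.98, negative without TGFb1+BMP4 replicate 2) and Timp2 (-0.45 to 0.34, positive without TGFb1+BMP4 replicate 1) in TGFb1+BMP4. Mmp3 over inhibitor ranged from -1.93 to 0.58 in TGFb1+BMP4 (0.34 without inhibitor replicate 2, 0.58 without TGFb1+BMP4 replicate 1) and from -1.89 to 0.14 in TGFb1 (0.14 without inhibitor replicate 2). The causes were not tested. Over all tested genes, calls for BMP4+inhibitor over inhibitor numbered 1360, against 3502 with the replicate block, 751 with no filter and 581 in a fit of the groups alone. For TGFb1+BMP4 over TGFb1 they numbered 326, against 1121, 80 and 0, and for the interaction 208, against 1117 and 27 (a fit of the compared groups alone was not run for the interaction, which uses all 4). For TGFb1+BMP4 over BMP4+inhibitor they numbered 4556, against 2378 in a fit of the groups alone. With 1 library left out, counts over all genes fell by more than 1.5 times in every comparison for some library, and without BMP4+inhibitor replicate 2 they rose to 2300 for BMP4+inhibitor over inhibitor and 602 for the interaction. Adamts3, Adamts5, Adamts9, Adamts14 and Adamts18 did not pass the stricter filter and have no value there. Median-of-ratios scaling shifted the median of all genes by -0.125, -0.122 and -0.111 in TGFb1+BMP4 over inhibitor, over TGFb1 and over BMP4+inhibitor. Genes near 0.15 CPM are imprecise at this depth.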
